A study of Mus musculus with 17 samples.

Results

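Chromatin accessibility was examined at 7 genes of the Polycomb repressive complexes: Ezh2, Ezh1, Suz12, Eed, Bmi1, Cbx7 and Cbx8. Every accessible region whose nearest transcript or nearest transcription start was annotated to one of these genes was taken, which gave 36 of 66177 regions. Bmi1 had 5 regions, Cbx7 9, Cbx8 6, Eed 2, Ezh1 6, Ezh2 6 and Suz12 2, and 9 of the 36 were annotated as promoters. Accessibility was measured by ATAC-seq, in which a transposase cuts open chromatin and leaves sequencing adapters there, and each value is a region's reads scaled to 1000000 reads over the whole set of regions in the same library (RPPM). The cells were naive B cells (nB, B220+ GL7- Fas-) from lymph nodes of unimmunized mice, germinal center B cells (GCB, B220+ GL7+ Fas+ PE+) specific for the antigen phycoerythrin, and CD138+ bone marrow plasma cells (BMPC), with GCB and BMPC taken 30 days after immunization. All mice were of a B6;129S4 background and carried floxed alleles of both de novo DNA methyltransferase genes (Dnmt3a fl/fl and Dnmt3b fl/fl). The labels name these alleles Dnmt3atm3.1Enl and Dnmt3btm5.1Enl, while the study's methods name the former Dnmt3atm3.2Enl. Dnmt3-deficient mice (KO) also carried 1 allele of a Cre active in the B lineage, which deleted both genes there, and Dnmt3-sufficient littermates (C) carried no Cre, so that the Cre allele cannot be told apart from the deletion. Accessibility does not measure the deletion, which was not checked here. The table held 3 C and 2 KO libraries of nB, 2 C and 4 KO of GCB, and 3 C and 2 KO of BMPC. All nB libraries came from male and all BMPC libraries from female mice, and each GCB library was a pool of 2 mice, of 1 sex per pool.

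Polycomb proteins keep genes silent through a pair of complexes. Polycomb repressive complex 2 methylates histone H3 at lysine 27 through EZH2 or EZH1, which work only together with the core subunits SUZ12 and EED, and EED binds the mark and stimulates the enzyme. Polycomb repressive complex 1 contains a RING E3 ligase for histone H2A with a partner such as BMI1, and its canonical forms read the H3 mark through chromobox proteins such as CBX7 and CBX8. EZH2 is abundant in dividing germinal center B cells and is required for the germinal center reaction, and EZH1 is the homolog found mainly in resting cells.

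GCB libraries were the shallowest, with 907959 to 2280954 reads in regions against 4104875 to 6079018 in nB and 5357687 to 8232313 in BMPC. Reads on the mitochondrial chromosome took 7.43% to 10.1% of the reads in GCB and 2.56% to 4.59% in the other libraries. A floor of 3 reads equaled 0.364 to 3.30 RPPM. These differences lie along the same line as GCB against the other cell types. The part of depth in the results was not tested. Mitochondrial reads were left out only together with chrX and chrY, as an alternative setting. The start-site region of Gcsam, a germinal center marker, measured 20.9 ± 6.45 RPPM (SD, n = 2) in C GCB against 0.580 ± 0.344 (SD, n = 3) in C nB and 5.49 ± 0.769 (SD, n = 3) in C BMPC. That of Bcl6, the germinal center regulator, went the other way, with 20.01 ± 2.17 RPPM (SD, n = 2) in C GCB against 53.8 ± 4.71 (SD, n = 3) in C nB. That of Tnfrsf17, a plasma cell receptor, measured 19.995 ± 2.30 RPPM (SD, n = 3) in C BMPC against 0.392 ± 0.306 (SD, n = 3) in C nB. These markers did not stand for their whole lists, since 2 of 7 germinal center genes were called higher and 1 lower in C GCB than in C nB, and 1 of the 4 plasma cell genes with a start-site region was called higher in C BMPC than in C nB. Of 6 naive B cell genes, 3 were called lower in C GCB and 5 in C BMPC than in C nB. Of all promoter regions, 6.99% were called lower and 8.88% higher in C GCB than in C nB. For C BMPC against C nB the shares were 6.41% and 11.2%. Of markers of other cells, 1 of 5 T cell, 1 of 6 myeloid and 2 of 4 erythroid genes had a start-site region. These summed per library to 11.2 to 16.1 RPPM in nB, 6.29 to 11.0 in GCB and 16.8 to 18.6 in BMPC for T cells, and to at most 5.31, 2.63 and 1.43 RPPM for myeloid cells. For the erythroid genes, Klf1 and Epor, the sums were 42.9 to 60.5, 34.1 to 42.2 and 63.9 to 74.7 RPPM. Cd3e, Cd3d, Cd4, Cd8a, Csf1r, Mpo, Lyz2, Gata1 and Hba-a1 had no start-site region in the table.

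In GCB, regions of Bmi1, Cbx7 and Ezh1 were less accessible than in nB, while other regions of Ezh2 and Ezh1 opened. Differences are log2 fold changes of RPPM + 1 from limma, with p-values adjusted over all regions, and a called region had an adjusted p of 0.01 or less together with a 2-fold or greater change. Among C libraries, 7 of the 36 regions were called lower and 3 higher in GCB than in nB, where 8.47% and 14.2% of all regions were called lower and higher. The median log2 fold change was -0.57 over the 36 regions, against 0.05 over all regions and -0.18 over the 14332 promoter regions. Values lay below 0 at 29 of the 36 regions, as at 47.6% of all regions and 62.0% of promoter regions. Fewer cells with an open region and less opening per cell cannot be told apart in these bulk libraries. Of the 7 start-site regions (the region of highest mean within 1 kb of each gene's start), 2 were called and all 7 had values below 0. Of promoter regions, 6.99% were called lower and 8.88% higher. The share of promoter regions with a value as low or lower was 0.740% for Bmi1, 7.35% for Cbx7 and 7.98% for Suz12. It was 12.2% for Ezh2, 25.4% for Ezh1, 37.0% for Cbx8 and 57.9% for Eed. From nB to BMPC in C libraries, 4 regions were called higher and 1 lower, where 18% and 20.1% of all regions were called, and the median over the 36 regions was 0.03. BMPC against GCB gave 11 regions higher and 1 lower in C libraries, where 11.3% and 19.1% of all regions were called. These comparisons share libraries and are not independent of each other.

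KO libraries were compared in the same way. From nB to GCB, 5 regions were called lower and 4 higher (7.84% and 18.4% of all regions), with a median log2 fold change of -0.55 over the 36 regions and 0.12 over all regions. From nB to BMPC, 2 regions were called higher and 0 lower (18.4% and 16.9% of all regions), a count that was 6 by edgeR's quasi-likelihood test and 0 with a pseudocount of 5 RPPM, where 43.6% and 19.3% of all regions were called in either direction. From GCB to BMPC, 8 regions were called higher and 2 lower (12.1% and 19.9% of all regions). At unadjusted p under 0.05, 9 of the 36 regions passed from nB to BMPC in KO libraries, against 55.4% of all regions.

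**Figure D1:**
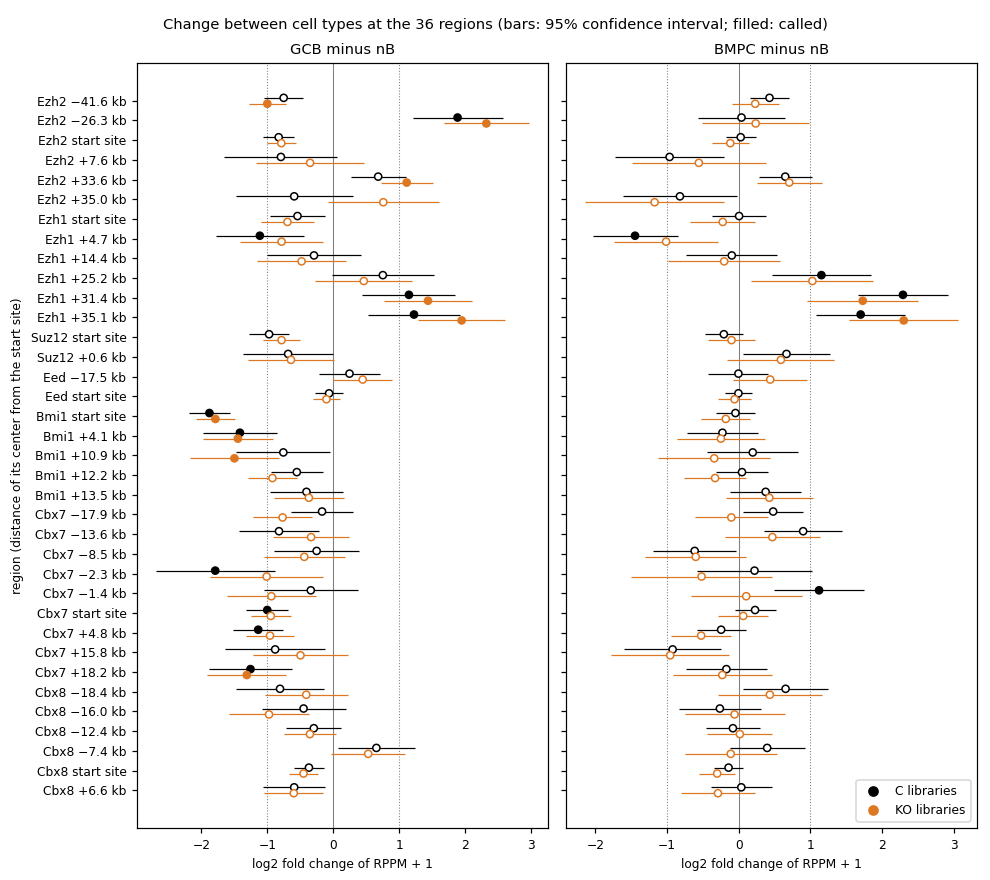
Log2 fold change of RPPM + 1 at each of the 36 regions for GCB minus nB and BMPC minus nB, in C libraries (black) and KO libraries (orange). Bars are 95% confidence intervals from limma, filled points were called, and dotted lines mark a 2-fold change; 29 of 36 values for GCB minus nB in C libraries lie below 0.

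Ezh2, the main H3K27 methyltransferase of dividing cells, was less accessible at its start in GCB while a region upstream of it opened only there among these libraries. The start-site region spanned chr6:47543911-47545681 (mm9) and held exon 1 and part of intron 1. In C libraries it measured 90.4, 87.8 and 84.1 RPPM in nB, 47.1 and 50.6 in GCB, and 85.7, 94.1 and 87.7 in BMPC. KO libraries measured 88.3 and 87.4 RPPM in nB, 44.1, 51.6, 60.1 and 47.5 in GCB, and 82.4 and 79.5 in BMPC. Every GCB library lay below every nB and BMPC library. From nB to GCB the log2 fold change was -0.83 in C (SE 0.11, limma adjusted p = 1.3e-06) and -0.79 in KO libraries (SE 0.11, limma adjusted p = 1.0e-06), which passed the limit on p but not that of 2-fold. From nB to BMPC the changes were 0.03 and -0.12.

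The upstream Ezh2 region lay at chr6:47571173-47571551 (mm9), between genes, with its center 26.3 kb before the Ezh2 start, and no nearer start of a coding gene. C libraries measured 1.95, 1.51 and 0.931 RPPM in nB, 7.92 and 7.96 in GCB, and 1.82, 0.912 and 1.87 in BMPC. KO libraries measured 0.987 and 0.787 RPPM in nB, 8.81, 10.2, 6.58 and 8.39 in GCB, and 1.82 and 0.747 in BMPC. The GCB values did not overlap those of nB or BMPC, and the GCB pools of male mice (7.96 and 8.39 RPPM) lay within the range of the pools of female mice. The rise from nB to GCB was 1.88 on the log2 scale in C (SE 0.33, limma adjusted p = 4.5e-05) and 2.32 in KO libraries (SE 0.32, limma adjusted p = 9.5e-07). From GCB to BMPC it was -1.84 (SE 0.33, limma adjusted p = 3.9e-05) and -2.08 (SE 0.32, limma adjusted p = 3.2e-06). The values rested on few reads, 35 in C GCB and 21 in C nB, for a ratio of 5.59 with an exact 95% interval of 3.16 to 10.1 that covers counting error only. The rise was called in C libraries in all 28 alternative settings, and in KO libraries likewise. The regions are merged peaks of all samples, so this one may be in the set only through GCB peaks. Which libraries gave its peak was not checked, and no alternative setting removes such a choice. The 300 bases at its center, chr6:47571212-47571511 on the plus strand, are shown because this was the member region open in GCB alone among the 3 cell types. Capitals mark CAGCTG, the only one of the 6 letter strings searched that this window held:
Ezh2 upstream region: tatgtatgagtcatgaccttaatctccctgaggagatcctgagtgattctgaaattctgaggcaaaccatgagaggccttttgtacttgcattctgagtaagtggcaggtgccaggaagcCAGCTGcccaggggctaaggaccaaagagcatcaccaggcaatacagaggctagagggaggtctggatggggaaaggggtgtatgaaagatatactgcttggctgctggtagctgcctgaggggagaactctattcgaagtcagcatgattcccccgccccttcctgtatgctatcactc

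The other distal region annotated to Ezh2, at chr6:47586132-47587201 with its center 41.6 kb upstream, overlapped a Y_RNA gene and moved the opposite way. It measured 42.6, 48.8 and 50.4 RPPM in C nB, 29.0 and 26.2 in C GCB and 64.0, 65.7 and 62.0 in C BMPC. In KO libraries it measured 53.5 and 46.4 RPPM in nB, 19.8, 24.8, 24.6 and 29.4 in GCB, and 63.3 and 54.3 in BMPC. All 6 GCB libraries lay below all others. Its rise from GCB to BMPC was called in C (log2 fold change 1.18, SE 0.15, limma adjusted p = 1.3e-07) and KO libraries (1.23, SE 0.14, limma adjusted p = 2.4e-08), and its fall from nB to GCB in KO libraries (-1.0001, SE 0.14, limma adjusted p = 1.1e-06). In C libraries the change was -0.75 (limma adjusted p = 0.00013). With quantile normalization the first and the last of these calls were lost (0.91 and -0.78), and the last also without KO nB replicate 1 or KO GCB replicate 1 (-0.90 each). The KO fall from nB to GCB was further lost with chrX, chrY and chrM left out. Its central 300 bases, chr6:47586516-47586815 on the plus strand, are shown for comparison with the nearer region, with GAAAC and GGAAGT on either strand in capitals:
Ezh2 far upstream region: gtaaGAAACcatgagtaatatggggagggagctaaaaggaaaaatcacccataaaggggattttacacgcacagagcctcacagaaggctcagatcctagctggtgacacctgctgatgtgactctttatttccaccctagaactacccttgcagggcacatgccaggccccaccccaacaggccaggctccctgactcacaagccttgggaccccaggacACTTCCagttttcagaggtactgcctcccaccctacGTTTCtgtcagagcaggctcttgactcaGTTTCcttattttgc

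Within Ezh2, a region in intron 3 at chr6:47510883-47511899 was the only other member region of Ezh2 with higher values in GCB in both genotypes. It measured 9.50, 9.23 and 9.12 RPPM in C nB, 17.6 and 13.6 in C GCB and 12.1, 17.0 and 16.8 in C BMPC. KO libraries measured 9.38 and 8.07 RPPM in nB, 19.8, 17.2, 20.2 and 23.1 in GCB and 14.7 and 14.9 in BMPC. The change from nB to GCB was called in KO (log2 fold change 1.11, SE 0.19, limma adjusted p = 2.9e-05) and was 0.68 in C libraries (SE 0.20, limma adjusted p = 0.0080). A neighboring low region in the same intron, chr6:47509862-47510230, measured 9.91, 5.73, 3.07 and 2.80 RPPM in KO GCB against 0.486 and 0.560 in KO BMPC, a called fall (log2 fold change -1.93, SE 0.41, limma adjusted p = 0.00026). KO nB measured 2.14 and 2.76 RPPM. In C libraries this region measured 4.63, 4.90 and 1.67 RPPM in nB, 3.52 and 0.937 in GCB and 1.95, 1.28 and 1.40 in BMPC, which overlap. A region in intron 1 of Ezh2, 7.61 kb from the start, was called in no comparison and lay between 0.468 and 5.71 RPPM in all libraries.

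Ezh1, the homolog of Ezh2 found mainly in resting cells, opened near its 3′ end in GCB and BMPC and closed in its first intron, while its start changed less. The start-site region, chr11:101087435-101088082, measured 18.3, 25.8 and 29.0 RPPM in C nB, 18.5 and 14.1 in C GCB and 25.9, 27.7 and 19.3 in C BMPC. KO libraries measured 27.3 and 24.8 RPPM in nB, 19.8, 14.6, 14.9 and 14.0 in GCB and 22.5 and 21.8 in BMPC. C nB and C GCB overlapped, and the log2 fold changes from nB to GCB of -0.54 in C and -0.70 in KO libraries were not called.

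The Ezh1 region over exon 17 and its flanking introns, chr11:101056004-101056665, lay 31.4 kb into the gene. The start of Ccr10, a chemokine receptor gene, was nearer than that of Ezh1, at 19577 bases. The deposited annotation gave Cntnap1 as the nearest start, at 18572 bases. The region had the largest range of group means of the 36 regions, 2.43 on the log2 scale. It measured 1.46, 0.377 and 0.372 RPPM in C nB, 3.08 and 2.34 in C GCB and 6.11, 8.21 and 7.32 in C BMPC. KO libraries measured 0.658 and 0.394 RPPM in nB, 3.30, 4.46, 2.19 and 2.80 in GCB and 4.37 and 3.73 in BMPC. All BMPC libraries lay above all nB libraries. The rise from nB to BMPC was called in C (log2 fold change 2.29, SE 0.31, limma adjusted p = 3.2e-07) and KO libraries (1.73, SE 0.38, limma adjusted p = 0.00036). By counts it was 139 reads against 10 in C libraries, a ratio of 10.5 with an exact 95% interval of 5.54 to 22.4. The region may be in the set only through peaks of the cell types where it was higher, which was not checked. Its p-values and interval do not account for that choice. The smaller rise to GCB, called in C at 1.15 (SE 0.34, limma adjusted p = 0.0083), kept its call in only 12 of 28 alternatives, and each C GCB library decided it, with adjusted p = 0.073 without replicate 1 and 0.021 without replicate 2 (limma). In KO libraries the rise to GCB was called at 1.43 (SE 0.33, limma adjusted p = 0.00066) and was 1.31 and not called without nB replicate 2. From GCB to BMPC a rise of 1.15 was called in C libraries (SE 0.34, limma adjusted p = 0.0066), against 0.30 in KO libraries, and the difference between them was not called. The C call was kept in 20 of 28 alternatives. Among the settings that lost it were DESeq2, chrX, chrY and chrM left out, and BMPC replicate 2 or 3 left out. Its central 300 bases, chr11:101056184-101056483 on the plus strand, are shown as those of the member region with the widest range, and held none of the 6 strings searched:
Ezh1 exon 17 region: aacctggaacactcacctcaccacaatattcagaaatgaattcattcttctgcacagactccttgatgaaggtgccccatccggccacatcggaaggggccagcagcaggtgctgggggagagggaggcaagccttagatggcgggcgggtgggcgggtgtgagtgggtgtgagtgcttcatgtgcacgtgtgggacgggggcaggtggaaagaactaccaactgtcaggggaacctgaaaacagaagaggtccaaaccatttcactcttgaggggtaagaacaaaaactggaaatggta

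A second Ezh1 region at the last exon, chr11:101052518-101052885, was near zero in nB, with 1 to 3 reads per library. The deposited annotation gave Cntnap1 as its nearest start, at 15086 bases, and as that of the intron 12 region below, at 24871 bases. C libraries measured 0.487, 0.188 and 0.558 RPPM in nB, 2.20 and 2.34 in GCB and 3.12, 4.38 and 3.27 in BMPC. KO libraries measured 0.329 and 0.197 RPPM in nB, 2.20, 4.46, 4.38 and 4.89 in GCB and 4.86 and 5.60 in BMPC. No nB library overlapped any GCB or BMPC library. This region, too, may be in the set only through peaks of the cell types where it was higher, which was not checked. From nB to BMPC the ratio by counts was 8.68 in C (exact 95% interval 3.79 to 24.5) and 19.2 in KO libraries (6.29 to 95.2), and both rises were called. From nB to GCB it was 5.59 in C (1.84 to 18.7) and 15.6 in KO libraries (4.79 to 80.7). The call in C GCB, at a log2 fold change of 1.22 (SE 0.34, limma adjusted p = 0.0045), was lost without nB replicate 2 (1.10), without either C GCB replicate (1.25 and 1.19) and with quantile normalization (0.80). Another Ezh1 region, in intron 12 at chr11:101062303-101062817, rose from 1.95, 1.88 and 2.61 RPPM in C nB to 6.11, 6.02 and 5.76 in C BMPC (log2 fold change 1.15, SE 0.34, limma adjusted p = 0.0049), with 4.84 and 3.75 in C GCB, a call lost without nB replicate 1 or 2 or any BMPC replicate, with values of 1.09 to 1.17. KO libraries measured 2.30 and 2.16 RPPM in nB, 2.20, 8.91, 1.75 and 3.50 in GCB and 6.20 and 5.04 in BMPC, a change to BMPC of 1.03 (limma adjusted p = 0.041). The remaining Ezh1 region, in intron 6, was called in no comparison and lay between 2.20 and 7.001 RPPM in all libraries.

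In intron 1 of Ezh1, 4.75 kb from the start, the region chr11:101082787-101083244 was most accessible in nB. It measured 11.4, 8.85 and 11.4 RPPM in C nB, 3.96 and 4.68 in C GCB and 4.42, 1.82 and 3.89 in C BMPC. KO libraries measured 8.88 and 8.66 RPPM in nB, 6.61, 2.55, 4.82 and 5.59 in GCB and 4.62 and 3.17 in BMPC. All nB libraries lay above all others. The fall was called in C libraries for BMPC (log2 fold change -1.45, SE 0.29, limma adjusted p = 0.00011) and for GCB (-1.11, SE 0.32, limma adjusted p = 0.0066). The call for GCB was lost without nB replicate 1 or 3 (-1.06 each) and without either C GCB replicate (-1.01 and -1.21). Leaving out chrX, chrY and chrM also lost it. In KO libraries the changes were -1.01 for BMPC (limma adjusted p = 0.019) and -0.78 for GCB (limma adjusted p = 0.035).

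**Figure D2:**
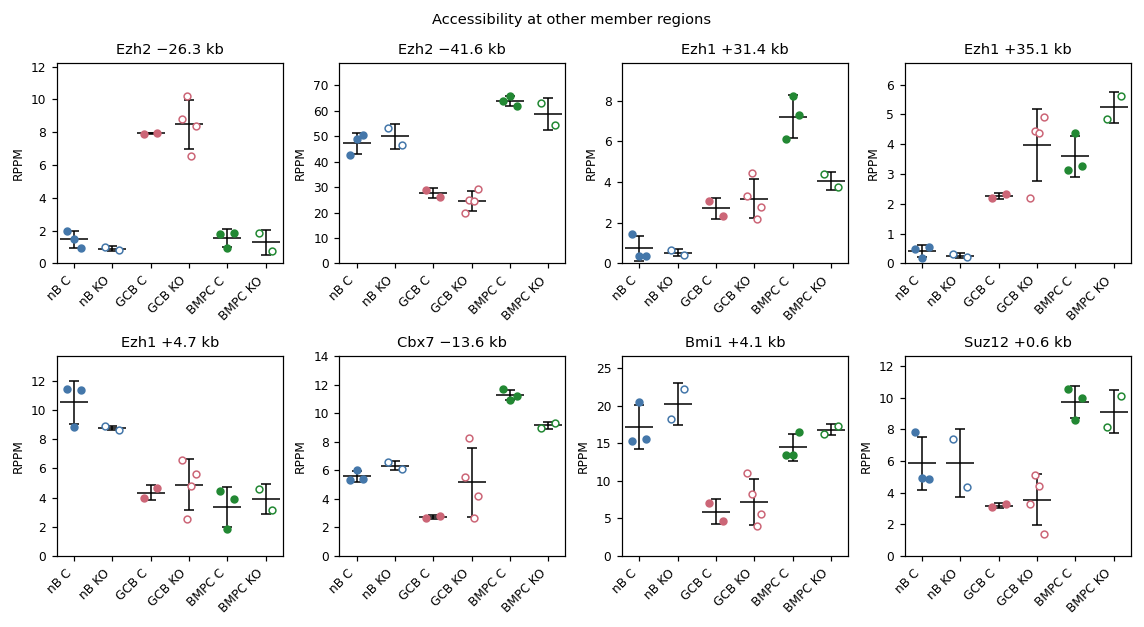
RPPM of 8 member regions away from the start-site regions, by group, with filled points for C and open points for KO libraries, and bars for the mean and SD. Distances are of the region's center from the gene's start, with a minus sign upstream; the Ezh2 region 26.3 kb upstream lies between 6.58 and 10.2 RPPM in GCB and at most 1.95 RPPM in every other library.

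Suz12, which encodes a core subunit that the methyltransferase needs, was lower in GCB at its start. Its start-site region, chr11:79806016-79806853, measured 58.2, 53.1 and 54.9 RPPM in C nB, 22.4 and 34.2 in C GCB and 49.3, 44.2 and 50.3 in C BMPC. KO libraries measured 49.0 and 50.4 RPPM in nB, 25.3, 29.9, 29.4 and 29.4 in GCB and 45.9 and 46.7 in BMPC. No GCB library overlapped the others. From nB to GCB, Suz12 changed by -0.97 on the log2 scale in C (SE 0.15, limma adjusted p = 4.8e-06) and by -0.78 in KO libraries (SE 0.14, limma adjusted p = 3.6e-05), under the 2-fold limit in both. A smaller region just downstream, chr11:79806965-79807497 over the end of exon 1 and intron 1, was called higher in BMPC than in GCB in C (log2 fold change 1.35, SE 0.33, limma adjusted p = 0.0012) and KO libraries (1.23, SE 0.31, limma adjusted p = 0.0017). It measured 7.80, 4.90 and 4.84 RPPM in C nB, 3.08 and 3.28 in C GCB and 10.5, 8.58 and 9.97 in C BMPC. In KO libraries it measured 7.40 and 4.33 RPPM in nB, 3.30, 5.09, 4.38 and 1.40 in GCB and 8.14 and 10.1 in BMPC. The C call was lost without either C GCB replicate (1.32 and 1.39), and the KO call without GCB replicate 4 (0.95) or either BMPC replicate (1.37 and 1.09).

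Eed, which encodes the subunit that binds the H3K27 mark, did not follow the others. Its start-site region, chr7:97128447-97130226, measured 135, 120 and 123 RPPM in C nB, 113 and 128 in C GCB and 137, 117 and 123 in C BMPC. KO libraries measured 118 and 121 RPPM in nB, 102, 106, 134 and 104 in GCB and 118 and 111 in BMPC. The cell types overlapped. The log2 fold change from nB to GCB was -0.06 in C libraries (95% interval -0.28 to 0.15) and -0.10 in KO libraries (-0.30 to 0.10), so a 2-fold change lay outside both intervals. The second region of Eed, between genes 17.5 kb upstream, lay between 6.69 and 14.1 RPPM in all libraries and was called in no comparison.

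Bmi1, which encodes a partner of the RING ligase in Polycomb repressive complex 1, had the largest fall of the start-site regions. The region, chr2:18597968-18599398, measured 81.6, 75.4 and 82.3 RPPM in C nB, 16.7 and 26.2 in C GCB and 75.8, 76.6 and 79.1 in C BMPC. KO libraries measured 86.0 and 76.8 RPPM in nB, 26.4, 24.8, 21.9 and 18.9 in GCB and 68.6 and 74.7 in BMPC. The highest GCB library lay far below the lowest library of the other cell types. Mean accessibility was 3.71 times higher in C nB than in C GCB (79.7 ± 3.81, n = 3, against 21.5 ± 6.73 RPPM, n = 2, SD) and 3.59 times higher in C BMPC (77.2 ± 1.71 RPPM, SD, n = 3). The log2 fold change from nB to GCB was -1.88 in C (SE 0.15, limma adjusted p = 1.2e-10) and -1.79 in KO libraries (SE 0.14, limma adjusted p = 9.7e-11), and was called in all 28 alternatives in both. The rise from GCB to BMPC was called at 1.83 in C (SE 0.15, limma adjusted p = 9.9e-11) and 1.61 in KO libraries (SE 0.14, limma adjusted p = 3.8e-10). Of the 14332 promoter regions, 0.740% had a C value as low or lower, and of the 8853 with a mean of at least 20 RPPM, a limit chosen after the values were seen, 0.249% did. With the C pool of female mice left out, so that both groups were male, the value was -1.57 (limma adjusted p = 9.2e-08).

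The 250 bases before the start are shown for Bmi1, which fell most, for Suz12, whose change was close to that of Cbx7, and for Eed, which did not change by as much as 2-fold, each on the strand of its gene in mm9: chr2:18598395-18598644 (plus), chr11:79806358-79806607 (plus) and chr7:97129494-97129743 (minus). Capitals mark GAAAC, here as its complement, in Bmi1 and TTTCCCGC, the E2F letters, in Suz12, and the Eed window held none of the 6 strings. Of 22367 windows of this length before protein-coding genes, 39.4% held GAAAC and 1.08% TTTCCCGC. The windows held 21, 37 and 11 CpG dinucleotides, against a median of 8. The central 300 bases of the Eed start-site region, just past its window, held both TTTCCCGC and GAAAC.
Bmi1 upstream: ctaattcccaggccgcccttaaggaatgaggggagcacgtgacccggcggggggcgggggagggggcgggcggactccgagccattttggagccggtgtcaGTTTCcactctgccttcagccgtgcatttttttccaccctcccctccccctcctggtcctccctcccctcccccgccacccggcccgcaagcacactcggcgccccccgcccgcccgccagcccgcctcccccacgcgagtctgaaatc
Suz12 upstream: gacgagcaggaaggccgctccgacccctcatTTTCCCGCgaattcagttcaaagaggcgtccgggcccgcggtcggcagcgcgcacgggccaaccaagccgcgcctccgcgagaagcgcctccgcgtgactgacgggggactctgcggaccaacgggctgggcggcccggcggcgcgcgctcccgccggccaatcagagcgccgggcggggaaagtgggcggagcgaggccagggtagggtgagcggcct
Eed upstream: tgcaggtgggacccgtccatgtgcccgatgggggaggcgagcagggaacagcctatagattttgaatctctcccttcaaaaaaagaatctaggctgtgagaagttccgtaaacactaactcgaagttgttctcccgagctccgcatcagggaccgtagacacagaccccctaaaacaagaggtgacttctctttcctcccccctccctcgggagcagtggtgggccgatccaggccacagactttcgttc

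Of the 4 other Bmi1 regions, 2 were called lower in GCB than in nB, 1 of them in KO libraries only. The region in intron 1, chr2:18602567-18603003, measured 15.3, 20.5 and 15.6 RPPM in C nB, 7.04 and 4.68 in C GCB and 13.4, 13.5 and 16.5 in C BMPC. KO libraries measured 18.3 and 22.2 RPPM in nB, 11.0, 8.27, 3.95 and 5.59 in GCB and 16.3 and 17.4 in BMPC. Its fall from nB to GCB was called in C (log2 fold change -1.42, SE 0.27, limma adjusted p = 0.00013) and KO libraries (-1.45, SE 0.26, limma adjusted p = 4.5e-05). Without C GCB replicate 2 the C value was -1.17 with a limma adjusted p = 0.01001, just past the limit. A region 10.9 kb from the start and beyond the gene's end, chr2:18609449-18609705, lay 6082 bases from the start of Gm13334. It measured 8.06 and 9.84 RPPM in KO nB, 4.41, 3.82, 0.877 and 2.10 in KO GCB and 7.77 and 5.97 in KO BMPC. Its fall was called in KO libraries (log2 fold change -1.50, SE 0.33, limma adjusted p = 0.00047), was -1.37 and not called without KO nB replicate 2, and was -0.76 in C libraries (limma adjusted p = 0.079), where it measured 8.53, 9.23 and 5.96 RPPM in nB, 3.08 and 5.62 in GCB and 9.23, 8.21 and 9.81 in BMPC. The remaining 2 Bmi1 regions were called in no comparison. Of these, the one 12.2 kb past the start measured 23.8 to 31.3 RPPM in nB, 9.91 to 18.2 in GCB and 21.1 to 26.6 in BMPC, with no overlap of GCB with the others, and a log2 fold change from nB to GCB of -0.55 in C and -0.92 in KO libraries. The one 13.5 kb past the start lay between 3.30 and 10.2 RPPM in all libraries. These 2 regions lay 4778 and 3487 bases from the start of Gm13334, nearer than that of Bmi1. For the latter region the deposited annotation gave Spag6l as the nearest start.

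**Figure D3:**
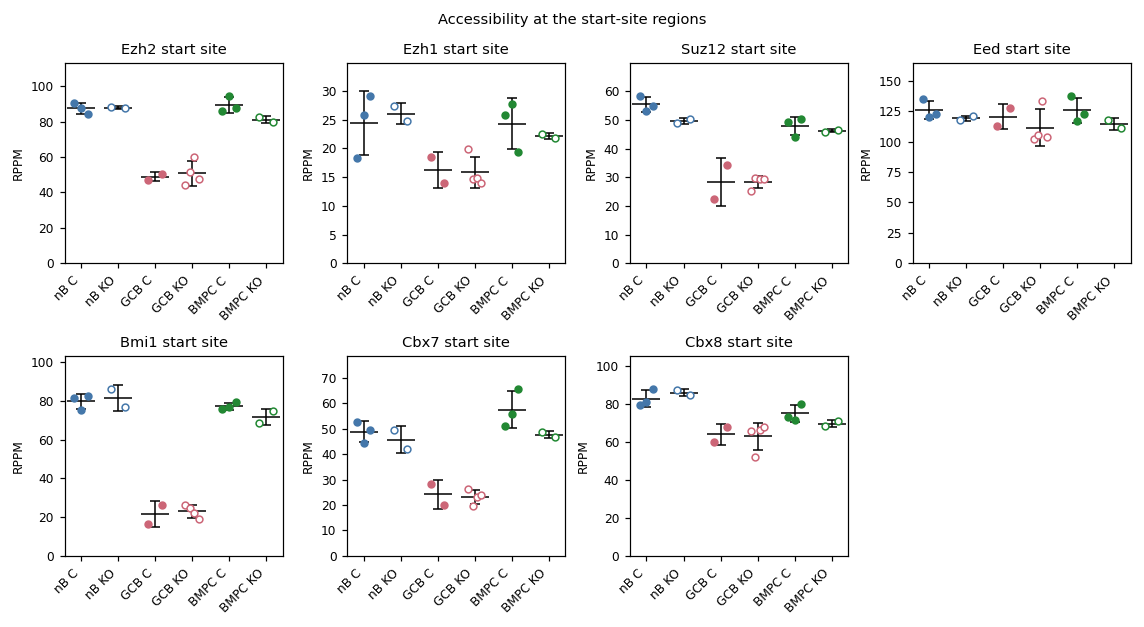
RPPM of the start-site region of each of the 7 genes, by group, with filled points for C and open points for KO libraries, and bars for the mean and SD; each vertical axis starts at 0. GCB libraries lie below all nB and BMPC libraries at Ezh2, Suz12, Bmi1, Cbx7 and, by a small margin from BMPC, Cbx8. At Bmi1 they lie from 16.7 to 26.4 RPPM. The cell types overlap at Ezh1 and Eed. How many promoter regions separate in this way was not counted.

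Cbx7 encodes a chromobox reader of the H3K27 mark. Its start-site region, chr15:79762599-79763544, measured 52.6, 44.5 and 49.3 RPPM in C nB, 28.1 and 20.1 in C GCB and 51.1, 55.8 and 65.6 in C BMPC. KO libraries measured 49.4 and 42.1 RPPM in nB, 26.4, 19.7, 23.2 and 23.8 in GCB and 48.7 and 46.7 in BMPC. Again no GCB library overlapped the others. The log2 fold change from nB to GCB was -1.001 in C (SE 0.16, limma adjusted p = 8.3e-06) and -0.95 in KO libraries (SE 0.15, limma adjusted p = 7.1e-06), on either side of the 2-fold limit. The C call was lost in 6 of 28 alternatives. Among them were the settings without nB replicate 1 or 3 (-0.95 and -0.99), without GCB replicate 2 (-0.77) and with chrX, chrY and chrM left out (-0.93). From GCB to BMPC the region rose by 1.23 on the log2 scale in C (SE 0.16, limma adjusted p = 2.1e-07) and by 1.01 in KO libraries (SE 0.15, limma adjusted p = 1.9e-06). The KO call was lost without GCB replicate 2 (0.94) or BMPC replicate 1 (0.98), and with chrX, chrY and chrM left out.

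Other Cbx7 regions lay on both sides of the start-site region. The annotated Cbx7 gene reaches beyond the transcript used here, with a start 38477 bases from the center of the start-site region. Regions given below as upstream lie before the start used here but inside that longer gene. In intron 2, chr15:79757902-79758652 measured 36.1, 36.7 and 38.0 RPPM in C nB, 19.4 and 13.6 in C GCB and 25.5, 34.7 and 33.6 in C BMPC, a called fall from nB to GCB (log2 fold change -1.14, SE 0.19, limma adjusted p = 1.6e-05) that was -0.90 without C GCB replicate 2. KO libraries measured 42.3 and 33.7 RPPM in nB, 24.2, 15.9, 19.7 and 16.8 in GCB and 25.0 and 26.9 in BMPC, and the change to GCB was -0.96. Beyond the gene's 3′ end, chr15:79744582-79745222 measured 14.9, 12.1 and 12.1 RPPM in C nB, 3.52 and 6.56 in C GCB and 12.4, 13.0 and 9.19 in C BMPC. The KO values were 12.5 and 15.5 RPPM in nB, 5.51, 8.91, 4.38 and 2.80 in GCB and 14.5 and 9.52 in BMPC. The fall to GCB at this region was called in C (log2 fold change -1.25, SE 0.31, limma adjusted p = 0.0016) and KO libraries (-1.31, SE 0.29, limma adjusted p = 0.00053), and the C call was lost without GCB replicate 1 (-0.88) and the KO call without nB replicate 2 (-1.16).

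Upstream of the main Cbx7 start, a region at a distance of 13.6 kb, chr15:79776412-79776911, was most accessible in BMPC. It measured 5.36, 6.03 and 5.40 RPPM in C nB, 2.64 and 2.81 in C GCB and 11.7, 10.9 and 11.2 in C BMPC. KO libraries measured 6.58 and 6.10 RPPM in nB, 5.51, 8.27, 2.63 and 4.19 in GCB and 8.99 and 9.33 in BMPC. Every BMPC library lay above every other library. The rise from GCB to BMPC was called in C (log2 fold change 1.72, SE 0.30, limma adjusted p = 2.0e-05) and was 0.81 in KO libraries (limma adjusted p = 0.017). Closer to the start, chr15:79764366-79764688 was called higher in C BMPC than in C nB (14.8, 10.4 and 9.81 against 5.12, 5.84 and 3.54 RPPM, log2 fold change 1.12, SE 0.31, limma adjusted p = 0.0029), a call lost without nB replicate 3 or BMPC replicate 1 (0.95 each). C GCB measured 4.40 and 2.81 RPPM there. In KO libraries this region measured 6.74 and 6.49 RPPM in nB, 2.20, 1.27, 4.82 and 4.89 in GCB and 7.29 and 7.09 in BMPC, with a change of 0.10 from nB to BMPC. The narrowest region, chr15:79765305-79765468, measured 4.39, 6.78 and 6.33 RPPM in C nB, 0 and 2.81 in C GCB and 7.28, 7.48 and 5.92 in C BMPC. Its called fall to GCB in C libraries (log2 fold change -1.79, SE 0.44, limma adjusted p = 0.0016) rested on GCB replicate 1, which held 0 reads, and was -0.82 without it (limma adjusted p = 0.18). The KO values were 5.59 and 4.92 RPPM in nB, 4.41, 0.636, 1.75 and 2.80 in GCB and 4.01 and 2.80 in BMPC. The remaining 3 Cbx7 regions were called in no comparison. They measured 1.46 to 7.80 RPPM over all libraries at the last exon, 1.71 to 6.91 RPPM at a distance of 8.49 kb upstream and 7.01 to 18.9 RPPM at 17.9 kb upstream, with nB and GCB overlapping at each.

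Cbx8, another chromobox gene, had the smallest change from nB to GCB at its start after Eed. Its start-site region, chr11:118901948-118902971, measured 79.7, 81.4 and 88.0 RPPM in C nB, 60.3 and 67.9 in C GCB and 73.4, 71.9 and 80.3 in C BMPC. In KO libraries it measured 87.3 and 85.0 RPPM in nB, 66.1, 52.2, 66.2 and 67.8 in GCB and 68.5 and 71.1 in BMPC. GCB lay below nB in every library and just below BMPC. Its log2 fold change to GCB was -0.37 in C libraries (from nB, 95% interval -0.60 to -0.14) and -0.45 in KO libraries (-0.67 to -0.23), neither of them called. To BMPC it was -0.14 from nB in C and -0.30 in KO libraries, also not called, and the KO value was the lowest of the 7 start-site regions. Of its 5 other regions, 1 was called, between genes and 18.4 kb upstream at chr11:118920496-118920872. It measured 5.12, 5.84 and 4.28 RPPM in C nB, 3.96 and 1.41 in C GCB and 7.15, 10.2 and 8.41 in C BMPC, and rose from C GCB to C BMPC (log2 fold change 1.46, SE 0.32, limma adjusted p = 0.00041), a call lost without C GCB replicate 2 (0.94). The KO libraries measured 5.76 and 4.92 RPPM in nB, 5.51, 2.55, 3.95 and 3.50 in GCB and 6.07 and 9.33 in BMPC. The 4 others were called in no comparison. At a distance of 6.62 kb from the start, values were 10.6 to 15.1 RPPM in nB and 6.16 to 9.37 in GCB. The region 12.4 kb upstream measured 16.5 to 21.8 RPPM in nB and 9.91 to 15.9 in GCB. That 16.0 kb upstream measured 9.25 to 14.0 RPPM in nB and 2.20 to 8.90 in GCB. The last, 7.40 kb upstream, measured 4.33 to 8.06 RPPM in nB and 5.51 to 13.1 in GCB.

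Levels of the start-site regions were compared per kb of region. In C nB, Cbx8 was highest at 81.1 ± 4.32 RPPM per kb (SD, n = 3), followed by Eed at 70.7 ± 4.33, Suz12 at 66.1 ± 3.09, Bmi1 at 55.7 ± 2.66, Cbx7 at 51.6 ± 4.34, Ezh2 at 49.4 ± 1.78 and Ezh1 at 37.6 ± 8.52 (SD, n = 3 each). The library ranges of Eed and Suz12, of Bmi1 and Cbx7 and of Cbx7 and Ezh2 overlapped. In C GCB, Eed at 67.7 ± 5.90 RPPM per kb and Cbx8 at 62.6 ± 5.29 (SD, n = 2 each) overlapped each other and stood above Suz12, Ezh2, Cbx7 and Ezh1, which lay between 25.1 and 33.8 RPPM per kb with neighbors overlapping. Bmi1 was lowest there, at 15.0 ± 4.70 RPPM per kb (SD, n = 2), and its libraries did not overlap those of Ezh1. In C BMPC, the order ran from Cbx8 at 73.4 ± 4.41 to Ezh1 at 37.5 ± 6.83 RPPM per kb (SD, n = 3 each), and all neighbors above Ezh1 overlapped.

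Deletion of Dnmt3a and Dnmt3b was accompanied by no called change at these genes. Between KO and C libraries, 0 of 36 regions were called by limma in nB, GCB or BMPC, where 0%, 0.0317% and 0.104% of all regions were called. At unadjusted p under 0.05, 1, 2 and 1 of the 36 regions passed, against 1.67%, 11.8% and 9.55% of all regions, and the smallest adjusted p was 0.34. Over the 7 start-site regions, the log2 fold change of KO against C lay between -0.15 and 0.12 in nB, -0.12 and 0.12 in GCB and -0.26 and -0.05 in BMPC. In BMPC all 7 and 28 of the 36 regions lay below 0, with a median of -0.11 over the 36, against 45.7% of all regions and 60.1% of promoter regions below 0 and a median of 0.03 over all regions. At the Ezh2 start it was 0.01 in nB (95% interval -0.23 to 0.24), 0.05 in GCB (-0.17 to 0.27) and -0.14 in BMPC (-0.37 to 0.10). At the Bmi1 start it was 0.03 (-0.28 to 0.34), 0.12 (-0.18 to 0.41) and -0.11 (-0.42 to 0.20). All 21 intervals lay within a 2-fold change in either direction. edgeR's quasi-likelihood test and DESeq2 also called 0 of the 36 regions, while over all regions they called 1.81% and 0.746% in BMPC and at most 7 regions in nB and in GCB. The likelihood ratio test of edgeR called 1, the narrow Cbx7 region 2.30 kb upstream in BMPC (log2 fold change -1.04, edgeR adjusted p = 0.0056), where C libraries measured 7.28, 7.48 and 5.92 RPPM and KO libraries 4.01 and 2.80. That test called 2.53% of all regions in BMPC, so 1 of 36 is near its background. The difference between cell types in the KO effect was tested as an interaction, and limma called 0 of 36 regions in each of the 3 interactions, as it did over all regions (0%). At unadjusted p under 0.05, 1 region passed for GCB against nB, 1 for BMPC against nB and 3 for BMPC against GCB, against 6.21%, 5.24% and 8.32% of all regions. Neither edgeR test nor DESeq2 called any of the 36, while the likelihood ratio test called 0.00604%, 0.267% and 0.113% of all regions.

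**Figure D4:**
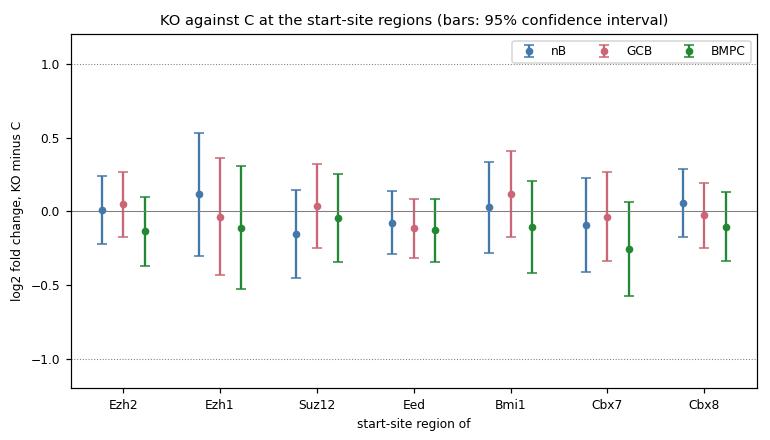
Log2 fold change of RPPM + 1 in KO against C libraries at the 7 start-site regions, for nB, GCB and BMPC, with 95% confidence intervals from limma. The estimates lie between -0.26 and 0.12, and no interval reaches the dotted lines at a 2-fold change.

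The start-site regions of other Polycomb genes were set beside the members. Of 8 other genes of Polycomb repressive complex 2, all with a start-site region, 3 were called lower in C GCB than in C nB and 0 higher, with a median log2 fold change of -0.68. Of all promoter regions, 6.99% were called lower and 8.88% higher, with a median of -0.18, and of those with a mean of at least 20 RPPM 6.05% and 1.99%, with a median of -0.28. These were Jarid2 and Phf1, accessory subunits, and Lcor, whose locus also encodes the PALI1 subunit. Jarid2 fell from 86.5 ± 6.26 (SD, n = 3) to 33.4 ± 4.38 RPPM (SD, n = 2), a log2 fold change of -1.35 (SE 0.12, limma adjusted p = 4.6e-10). Rbbp4, a histone-binding core subunit, and Rbbp7, its homolog on the X chromosome, were not called, at -0.23 and 0.46. In KO libraries 4 of the 8 were called lower and 0 higher, where 7.22% and 10.4% of promoter regions were. From nB to BMPC 0 of the 8 were called in either genotype, with medians of -0.03 in C and -0.06 in KO libraries, where 11.2% of promoter regions were called higher and 6.41% lower in C and 11.4% and 5.85% in KO libraries. From GCB to BMPC 4 were called higher in C and 3 in KO libraries, against 11.7% and 11.2% of promoter regions.

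Of 22 other genes of Polycomb repressive complex 1, 18 had a start-site region, and 5 of these were called lower in C GCB than in C nB and 0 higher (median log2 fold change -0.48), to be read against the same shares of promoter regions. The 5 were Phc2, Scmh1, Rybp, Kdm2b and Bcor. Bcor, a subunit of a variant complex encoded on the X chromosome, fell most, from 18.9 ± 1.57 (SD, n = 3) to 3.80 ± 2.72 RPPM (SD, n = 2), a log2 fold change of -2.18 (SE 0.38, limma adjusted p = 4.0e-05). Rybp, which joins variant complexes in place of a chromobox protein, fell from 101 ± 5.20 (SD, n = 3) to 49.7 ± 11.8 RPPM (SD, n = 2), a log2 change of -1.02 (SE 0.12, limma adjusted p = 7.6e-08). Rnf2, which encodes the main RING ligase, was not called, at 88.5 RPPM in C nB and 92.5 in C GCB. In KO libraries 2 of the 18 were called lower, Rybp and Bcor. From nB to BMPC 0 of the 18 were called in either genotype.

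Among 7 genes of enzymes that oppose the Polycomb marks, 4 had a start-site region, and 0 were called from nB to GCB by limma in either genotype. Of promoter regions, 6.99% were called lower and 8.88% higher in C libraries, and 7.22% and 10.4% in KO libraries. Asxl2 was called lower in C BMPC than in C nB, at 0.0434 ± 0.0751 against 2.04 ± 0.497 RPPM (SD, n = 3 each). That BMPC mean lay under the floor of 3 reads, which equaled 0.364 to 0.560 RPPM in BMPC libraries. The Asxl2 region may be in the set only through peaks of the cell types where it was higher, which was not checked. In KO BMPC, 0 of the 4 were called lower than in KO nB. Asxl1 was called higher there, at 11.0 ± 0.0563 against 4.95 ± 1.15 RPPM (SD, n = 2 each). Of promoter regions, 6.41% were called lower from nB to BMPC in C and 11.4% higher in KO libraries. Kdm6a, the H3K27 demethylase gene on the X chromosome, measured 59.4 ± 5.20 RPPM in C nB, all male, and 106 ± 1.95 in C BMPC, all female (SD, n = 3 each), so that cell type and sex cannot be told apart there. Among 6 genes known as Polycomb targets, Cdkn2a, the cell cycle inhibitor locus, rose from 10.8 ± 2.56 RPPM in C nB (SD, n = 3) to 34.2 ± 7.30 RPPM in C GCB (SD, n = 2) and 47.7 ± 2.83 in C BMPC (SD, n = 3). Its log2 fold changes from nB were 1.59 in C GCB (SE 0.18, limma adjusted p = 5.9e-08) and 2.07 in C BMPC (SE 0.16, limma adjusted p = 1.3e-11). Its neighbor Cdkn2b was called higher in C BMPC than in C nB, at 1.47 (SE 0.14, limma adjusted p = 5.9e-10). Cdkn1a fell in C GCB, from 17.3 ± 0.703 (SD, n = 3) to 6.97 ± 2.58 RPPM (SD, n = 2), and Cdkn1c, Prdm1 and Irf4 were not called from nB to GCB.

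The promoter regions of other genes whose values followed the Ezh2 start-site region most closely over the 16 libraries were those of Ago2, Sub1 and Ube2b, with Pearson's r of 0.986, 0.984 and 0.982 on log2(RPPM + 1). The Ago2 region measured 77.3 ± 4.78 RPPM in C nB (SD, n = 3), a lower 36.4 ± 2.90 in C GCB (SD, n = 2) and 72.0 ± 2.82 in C BMPC (SD, n = 3). Those most like the Ezh1 exon 17 region were Gzmk, Rnd1 and Nol9, at 0.969, 0.960 and 0.958. The points share depth and cell type, and the regions were picked for their r, so these values are a description.

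Letters of 6 short motifs were counted on both strands in the central 300 bases of the regions: TTTCCCGC and TTTGGCGC for E2F, GGAAGT for ETS factors, CAGCTG for E2A, GAAAC for IRF factors and ATGCAAAT for octamer factors. GAAAC reads GTTTC on the other strand and can overlap TTTCCCGC. Of 65891 windows over all regions on named chromosomes, 0.572% held TTTCCCGC, 0.354% TTTGGCGC, 30.3% GGAAGT, 20.6% CAGCTG, 55.4% GAAAC and 3.96% ATGCAAAT. Among the members TTTCCCGC occurred at the starts of Suz12 and Eed and at a distal region each of Cbx7 and Cbx8, and TTTGGCGC at none. The start-site windows of Ezh2 and Cbx7 held 47 and 44 CpG dinucleotides, against a median of 5 over all windows, and the upstream Ezh2 region open in GCB held 2. A match names letters only and was not tested as a binding site.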

How the data were processed

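ATAC-seq libraries of nB, GCB and BMPC were grouped as the labels give cell type and genotype. Of 17 labelled samples, 16 have a column in the table, and 1 KO BMPC sample was not analysed here. Per the study's methods the authors trimmed and mapped the reads (mm9), ran MACS2 per sample at a q-value limit of 0.01 and merged the peaks. A region near zero in some groups may thus have entered the set only through the groups where it was high. Its p-values between such groups do not account for that choice. The submitters' processing notes list Bowtie 1.1.1, Picard 1.127, MACS2 2.1.0.20140616 and edgeR 3.12.1. The deposited RPM values (RPPM) are reads in a region per 1000000 reads in all regions. The authors' own fold changes, p-values and FDR, also in the table, were not used.

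All values were multiples of what 1 read is worth (100% within 0.001). The whole reads give the depths, the counting intervals and the count tests, for which edgeR and DESeq2 called other numbers of member regions than limma. Reads carry no molecular identifiers, so counting error is all that intervals and floors cover. Log2(RPPM + 1) was tested with limma 3.58.1 (R 4.3.3), with a trend of variance on mean, 6 group means, 16 libraries and Benjamini-Hochberg adjustment over 66177 regions. With the pseudocount, fold changes of low regions are understated. Calls needed an adjusted p no greater than 0.01 and a log2 fold change no smaller than 1 in size. Alternatives were pseudocounts of 0.1 and 5 RPPM, TMM scaling, quantile normalization, only regions averaging 1 RPPM or more, the compared groups only, an adjusted p of at most 0.05, no minimum fold, chrX, chrY and chrM left out, each library left out, a replicate block for the GCB pools, edgeR 4.0.16 (quasi-likelihood and likelihood ratio tests) and DESeq2 1.42.0. The scripts were tested on simulated data.

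The members and lists were chosen with earlier results of these data known. All member regions are reported. A start-site region is the one with the highest mean RPPM within 1 kb of the gene's start, and values in every library are given for these and for regions called in any comparison. Replicate numbers follow accession order except for the GCB pool names. GCB replicates of 1 genotype are separate pools of mice. Sequences, exons and introns were read from NCBIM37, which is mm9, and GENCODE vM1, 1 transcript per gene, with pysam 0.24.0. Tables and plots used Python 3.11.15, pandas 2.3.3, numpy 2.4.6, scipy 1.17.1 and matplotlib 3.10.9.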

Additional observations from a re-analysis of the deposited data

Results flagged for a closer look

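Within KO GCB, the only group of 4 libraries, 1 library stood apart from the other 3 at 5 of the 36 regions by Dixon's test, which flags about 1 in 20 groups by chance. At the Eed start-site region replicate 3 measured 134 RPPM against 102 to 106 in the others. At the Cbx8 start-site region replicate 2 measured 52.2 RPPM against 66.1 to 67.8. At the Suz12 start-site region replicate 1 measured 25.3 RPPM against 29.4 to 29.9, and at the Ezh1 start-site region the same library measured 19.8 against 14.0 to 14.9. In intron 6 of Ezh1 replicate 2 measured 7.001 RPPM against 2.20 to 2.80. The 5 deviations fell on 3 libraries and in both directions, and replicate 1 was the shallowest library, with 907959 reads in regions. No interaction of genotype and cell type reached an adjusted p of 0.05 by limma at any of the 36 regions.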

How the results depend on the processing

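The 48 calls of a member region between cell types were each tried under 28 alternatives, of which 2 only loosen the call and others leave out a library of a group not compared. Without these, 621 of 742 values kept their call, 121 lost it and 0 changed direction, 13 further values lost it without a library of another group, and 11 of the 48 calls were kept under all 28. Counts below are of called member regions for GCB against nB, BMPC against nB and BMPC against GCB, in C libraries (10, 5 and 12) and then in KO libraries (9, 2 and 10). Raising the pseudocount to 5 RPPM gave 3, 1 and 4 and then 3, 0 and 3. Without a minimum fold, BMPC against nB in C gave 8 and GCB against nB in KO 18. Both edgeR tests gave 9 for BMPC against nB in C and 6 in KO, where DESeq2 gave 4, an adjusted p of at most 0.05 gave 5 and the compared groups alone 5. The compared groups alone gave 6 for BMPC against GCB in KO. The likelihood ratio test of edgeR gave 1 for KO against C BMPC, where limma gave 0. Leaving out 1 library at a time, the counts ranged from 5 to 10, 3 to 5 and 7 to 12 in C and from 8 to 12, 2 to 4 and 5 to 10 in KO. The lowest, 5 for GCB against nB and 7 for BMPC against GCB, came without C GCB replicate 2, 3 for BMPC against nB without C BMPC replicate 1, and 5 for BMPC against GCB without KO BMPC replicate 1. The 4 for BMPC against nB in KO came without KO GCB replicate 2. Where 1 library of a group was left, it was assumed to vary like the other groups. Quantile normalization moved the median of all regions by -0.11 in C and -0.19 in KO for GCB against nB and by 0.14 and 0.12 for BMPC against GCB.

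Both genotypes of GCB have pools named F2 and M1, and with these 2 pools as a replicate block 0 member regions were called, as without it. The Cbx7 region 13.6 kb upstream had a log2 fold change of 0.90 with the block (KO against C, limma adjusted p = 0.052). KO pools F1 and F3 have no C partner, so the comparison with the block rested on F2 and M1 alone. The differences between the pools correlated at 0.062 between genotypes over 37538 regions. Pools of the same name share their sex, and the labels do not tie them to a shared day or batch, so this is no paired design. The shallow GCB libraries limit what could be seen at low regions, where 3 reads equal up to 3.30 RPPM.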
